A study of Rattus norvegicus with 12 samples.

Results

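The genes described here are 6 transcription factors through which the circadian clock reaches its output genes: Dbp, Tef, Hlf, Nfil3, Bhlhe40 and Bhlhe41. They were chosen by name, as the rows of the deposited expression table that carry these symbols, and all 6 of the 22431 genes in the table were found and passed the filter on low values that left 14170 genes for testing. The samples are 12 libraries of poly(A) RNA from the prefrontal cortex of wild-type rat offspring in early adolescence, 1 animal each. They comprise 4 libraries from offspring labelled in utero oxycodone (IUO), 4 labelled postnatal oxycodone (PNO) and 4 from the control group, titled Saline. Oxycodone, an opioid agonist, was given by oral gavage at 15 mg/kg, and the labels place dosing before pregnancy, or after it up to postnatal day 21, without tying a window to a group or giving the animals' sex, strain or exact age. A group's 4 animals were born to 2 dams, 2 from each. No label links an animal to its dam, so litter mates enter the tests as if independent and the p-values can come out too small. The hour at which the tissue was taken is not given in the sources used here.

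In the mammalian clock, the CLOCK and BMAL1 proteins bind E-box sequences and switch on their own repressors together with a layer of output factors. Dbp, Tef and Hlf encode the proline- and acid-rich (PAR) bZIP activators, which bind D-box sequences, and in mice they are known for keeping vitamin B6 metabolism and seizure resistance in the brain. Nfil3, also called E4BP4, encodes a repressor that competes for the D-box. Bhlhe40 and Bhlhe41, also called Dec1 and Dec2, encode repressors that bind the E-box, and Bhlhe40 is also switched on by neuronal activity.

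The E-box CACGTG is shown here because clock activators and the Bhlhe4 repressors share it. RefSeq promoters of the GRCr8 build were at hand for 5 of the 6 members, all but Hlf. Each window ran from 250 bases before to 50 bases after the gene's start. Of these 5 members, 3 held CACGTG (Tef, Bhlhe40 and Bhlhe41), against 6.42% of 33469 rat promoters of the same length. The Dbp and Nfil3 windows did not hold it. The motif reads alike on both strands. The stretches below are read on each gene's own strand with the motif in capitals. The Tef stretch lies at chr7:115206609-115206654 (forward strand), the Bhlhe40 stretch at chr4:143174210-143174255 (forward) and the Bhlhe41 stretch at chr4:180569378-180569423 (reverse).
Tef: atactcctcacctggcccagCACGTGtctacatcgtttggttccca
Bhlhe40: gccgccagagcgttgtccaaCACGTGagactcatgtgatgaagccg
Bhlhe41: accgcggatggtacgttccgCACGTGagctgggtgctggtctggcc

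The D-box was searched as TTATGTAA on either strand and as TTACGTAA, which hold in 0.893% and 0.12% of the same promoters. Neither was found in the windows of the 5 members. Among clock genes, the Per2 window held TTATGTAA and, at another place, CACGTT. That weaker form of the E-box was found on either strand in 4.83% of promoters. Cry2 and an Nr1d1 window also held CACGTT, and another Nr1d1 window held CACGTG. The windows of Per1, Per3, Nr1d2, Bmal1, Npas2 and Clock held none of these motifs, and no window was at hand for Cry1. The Ciart window, shown because Ciart had the smallest p of the clock genes in PNO minus Saline, held CACGTG 3 times, and the match farthest from the start is printed. These matches are letters in a window and say nothing of binding. The Per2 stretch with the D-box lies at chr9:99497158-99497205 (reverse strand) and the Ciart stretch at chr2:186112314-186112359 (reverse).
Per2: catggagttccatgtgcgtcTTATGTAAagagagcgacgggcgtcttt
Ciart: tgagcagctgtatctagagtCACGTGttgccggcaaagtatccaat

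The libraries held 49227533 to 60672246 counts each. All 8 markers of cortical projection neurons were detected in the tissue, with summed levels of 1666 to 2431 CPM (counts scaled by library size) in IUO, 1974 to 2508 CPM in PNO and 2093 to 2751 CPM in Saline libraries. Libraries also stood apart by markers of neighbouring regions. The mean log2 CPM of 8 striatal markers was 5.12 in IUO 1, 6.29 in IUO 2, 6.78 in PNO 2 and 4.89 in Saline 2, against 3.61 to 3.88 elsewhere. For 7 olfactory bulb markers the same mean was 4.65 in IUO 3, 4.11 in PNO 1, 3.91 in PNO 3 and 4.28 in PNO 4, against 1.34 to 1.98 elsewhere. These libraries are called striatal-raised and bulb-raised below. With the striatal-raised libraries left out, every remaining PNO library is bulb-raised and IUO 3 is as well, while no Saline library is. That setting therefore does not make the groups alike in regional markers. Summed oligodendrocyte markers were also highest in the 4 striatal-raised libraries, at 10374 CPM in IUO 1, 13856 CPM in IUO 2, 10010 CPM in PNO 2 and 9898 CPM in Saline 2, against 5577 to 8093 CPM elsewhere. Choroid plexus markers summed to 211 CPM in IUO 2, against 5.19 to 26.2 CPM elsewhere. GABAergic neuron markers, of which 5 of 6 were in the table, summed to 560 to 669 CPM in IUO and 592 to 615 CPM in PNO libraries, against 443 to 550 CPM in Saline libraries. These sums of both exposed groups lay above all Saline libraries. In PNO minus Saline, 3 of the 5 markers had a positive log2 fold change and 2 a negative one. Taken singly, 1 of the 5 lay above Saline without overlap in IUO, and 1 in PNO.

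Per length, Dbp and Tef were the most abundant of the 6. FPKM, the fragment number divided by transcript length and library size, averaged 54.8 ± 7.99 for Dbp, 40.0 ± 4.18 for Tef and 16.7 ± 2.27 for Hlf over all libraries (SD, n = 12). The repressors averaged 16.6 ± 2.48 FPKM for Bhlhe40, 12.4 ± 3.01 FPKM for Bhlhe41 and 3.16 ± 0.478 FPKM for Nfil3. Dbp exceeded Tef and Tef exceeded Hlf in all 12 libraries, and Bhlhe41 exceeded Nfil3 in all 12. Hlf and Bhlhe40 could not be ordered, since Hlf was higher in 5 of 12 libraries, and Bhlhe40 exceeded Bhlhe41 in 10 of 12. Among all tested genes, the mean FPKM of Dbp stood at percentile 92.7 and that of Nfil3 at percentile 33.6. Each library held at least 501 counts for Nfil3 and at least 1662 for any other member, which leaves little counting error next to the differences among animals.

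**Figure D1:**
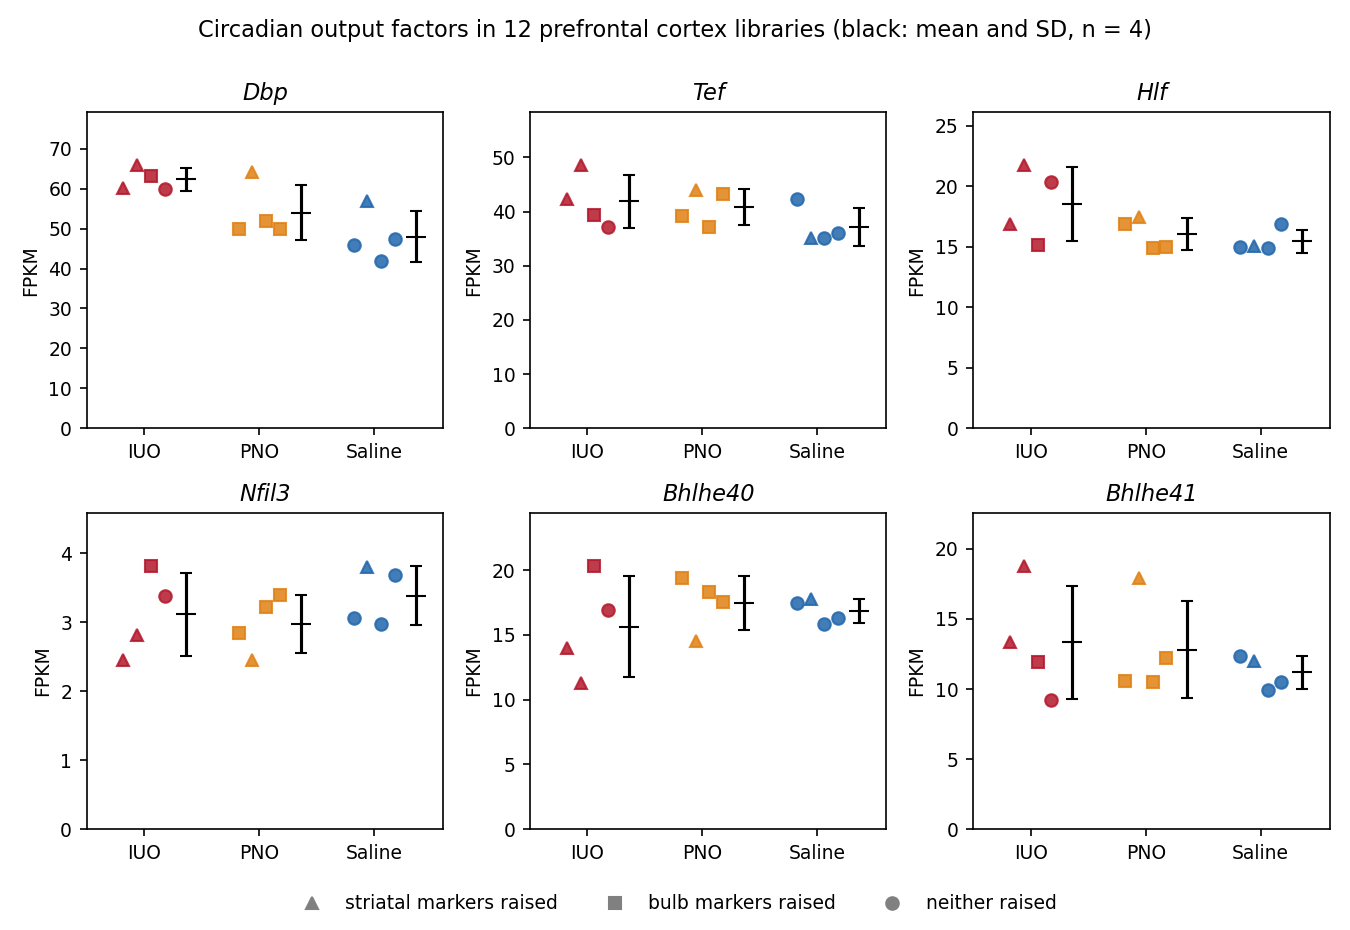
FPKM of the 6 members in each library (vertical axes, each from 0), with the IUO, PNO and Saline groups on the horizontal axes, symbols for striatal-raised and bulb-raised libraries, and black bars for the group mean and SD (n = 4). The 4 IUO libraries lie above the 4 Saline libraries for Dbp, and the groups overlap for the other 5 genes.

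Dbp, a D-box activator with a strong daily rhythm in many rodent tissues (chr1:96175440-96180745 on the forward strand in the deposited table, whose build is not given in the sources used here), had the largest log2 fold change among the members, in IUO minus Saline. It measured 60.2, 66.0, 63.2 and 59.8 FPKM in IUO 1 to 4, 49.8, 64.2, 51.9 and 49.96 FPKM in PNO 1 to 4, and 46.0, 56.8, 41.8 and 47.4 FPKM in Saline 1 to 4. The lowest IUO library was above the highest Saline library, and PNO 2 alone among PNO libraries reached the IUO range. The IUO group averaged 62.3 ± 2.87 FPKM, the PNO group 54.0 ± 6.89 FPKM and the Saline group 48.0 ± 6.36 FPKM (SD, n = 4 each).

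In the test across all genes, the log2 fold change of Dbp in IUO minus Saline was 0.36 (SE 0.10), a fold of 1.28, with an unadjusted p of 0.00473 that ranked 51 of 14170 genes. It did not pass after adjustment (adjusted p = 0.998 by edgeR's quasi-likelihood test with Benjamini-Hochberg adjustment), and neither did any other gene, so 0% of genes were called in this comparison. At an unadjusted p under 0.05, edgeR found 570 genes, 4.02% of those tested, and DESeq2 called 11 genes after adjustment, none of them a member. Of all tested genes, 163 (1.15%) had CPM in all 4 IUO libraries above all 4 Saline libraries, and Dbp was the 1 member among them. The summed GABAergic neuron markers separated the same libraries, and 5 of 5 had a positive log2 fold change in IUO minus Saline with a median of 0.38. Their part in the Dbp difference was not tested. In a bulk sample, more cells of a type and more RNA per cell cannot be told apart.

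In each group, the library with the highest striatal mean also had the highest Dbp: IUO 2, PNO 2 and Saline 2. IUO 1, the other striatal-raised library of its group, did not: its Dbp, at 184 CPM, was the lowest of the 4 IUO libraries on that scale. The 2 IUO libraries that are not striatal-raised, IUO 3 and IUO 4, measured 63.2 and 59.8 FPKM, against 46.0, 41.8 and 47.4 FPKM in the 3 Saline libraries without raised striatal markers. Without the 4 striatal-raised libraries, the log2 fold change of Dbp in IUO minus Saline was 0.42 (adjusted p = 0.551 by edgeR), and with striatal and bulb means as covariates it was 0.26 (adjusted p = 0.637 by edgeR). It lay between 0.30 and 0.43 when each library was left out in turn.

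Dbp differed less in the other comparisons. Its log2 fold change was 0.15 (SE 0.10) in PNO minus Saline (unadjusted p = 0.189, adjusted p = 0.616 by edgeR) and 0.21 (SE 0.10) in IUO minus PNO (unadjusted p = 0.0656, adjusted p = 0.714 by edgeR). With the 4 bulb-raised libraries left out, PNO 2 was the only PNO library, PNO minus Saline was 0.39 (unadjusted p = 0.0356, adjusted p = 0.712 by edgeR) and IUO minus PNO was -0.06, with that lone library assumed to vary like the other groups. Without PNO 2 alone, PNO minus Saline was 0.05 and IUO minus PNO was 0.31. No gene was called over all 14170 in either comparison (0%), while edgeR gave 1564 genes (11%) at an unadjusted p under 0.05 in PNO minus Saline and 953 (6.73%) in IUO minus PNO. DESeq2 called 117 and 8 genes there after adjustment, none of them a member. The PNO and IUO comparisons share their Saline libraries.

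Hlf, the hepatic leukemia factor and a PAR bZIP activator (chr10:75154507-75211935, reverse strand), had the next smallest p in IUO minus Saline. It measured 16.9, 21.8, 15.2 and 20.3 FPKM in IUO 1 to 4, 16.9, 17.5, 14.9 and 15.0 FPKM in PNO 1 to 4, and 15.0, 15.0, 14.9 and 16.9 FPKM in Saline 1 to 4. IUO 2 and IUO 4 stood above every other library, while IUO 1 and IUO 3 lay within the range of the Saline group. The log2 fold change was 0.24 (SE 0.11) in IUO minus Saline (unadjusted p = 0.0556, adjusted p = 0.998 by edgeR), 0.21 (SE 0.11) in IUO minus PNO (unadjusted p = 0.0859, adjusted p = 0.714) and 0.03 (SE 0.11) in PNO minus Saline (unadjusted p = 0.812, adjusted p = 0.946). Without IUO 2, which had the highest striatal and oligodendrocyte markers of the IUO group, the IUO minus Saline value was 0.15. That was the lowest of 0.15 to 0.33 with each library left out in turn, and other settings gave 0.16 to 0.34. The PNO minus Saline value was 0.28 with striatal and bulb means as covariates and -0.04 without the striatal-raised libraries.

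Tef, the thyrotroph embryonic factor and the third PAR bZIP activator (chr7:113317283-113341783, forward strand), varied least between libraries. It measured 42.3, 48.7, 39.4 and 37.2 FPKM in IUO 1 to 4, 39.1, 43.9, 37.1 and 43.3 FPKM in PNO 1 to 4, and 42.4, 35.2, 35.1 and 36.1 FPKM in Saline 1 to 4. The 3 groups overlapped throughout, with IUO 2 highest. Saline 3 was lowest in FPKM, while in CPM the striatal-raised Saline 2 was lowest, at 165 against 171 in Saline 3. Its log2 fold change was 0.15 (SE 0.10) in IUO minus Saline (unadjusted p = 0.151, adjusted p = 0.998 by edgeR), 0.11 (SE 0.10) in PNO minus Saline (unadjusted p = 0.277, adjusted p = 0.680) and 0.04 (SE 0.10) in IUO minus PNO (unadjusted p = 0.703, adjusted p = 0.935). Without the 4 striatal-raised libraries the IUO minus Saline value was -0.01. All 3 activators had a positive log2 fold change in each of the 3 comparisons, and 0 of 3 passed in any. In the 8 libraries that are not striatal-raised, 2 of 3 were positive in each comparison. Positive values made up 51.2% of all tested genes in PNO minus Saline, 56.4% in IUO minus Saline and 50.8% in IUO minus PNO. Over all 6 members, 5 values were positive in PNO minus Saline, 4 in IUO minus Saline and 5 in IUO minus PNO.

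Nfil3, the D-box repressor (chr17:12280484-12295858, forward strand), was the least abundant member. It measured 2.46, 2.81, 3.82 and 3.38 FPKM in IUO 1 to 4, 2.84, 2.45, 3.22 and 3.397 FPKM in PNO 1 to 4, and 3.06, 3.81, 2.97 and 3.69 FPKM in Saline 1 to 4. The groups overlapped, and the 3 lowest FPKM values were those of PNO 2, IUO 1 and IUO 2, all striatal-raised. In CPM, PNO 1, which is not striatal-raised, lay below IUO 2, at 10.07 against 10.20. Saline 2, the fourth striatal-raised library, was among the highest. The log2 fold change was -0.21 (SE 0.16) in PNO minus Saline (unadjusted p = 0.214, adjusted p = 0.634 by edgeR), -0.14 (SE 0.16) in IUO minus Saline (unadjusted p = 0.403, adjusted p = 0.998) and 0.07 (SE 0.16) in IUO minus PNO (unadjusted p = 0.667, adjusted p = 0.922). Without the striatal-raised libraries the IUO minus Saline value turned to 0.12 and the PNO minus Saline value was -0.08. With the bulb-raised libraries left out, which leaves PNO 2 alone in its group, the PNO minus Saline value was -0.49 (adjusted p = 0.726 by edgeR).

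Set against each other within a library, Dbp and Nfil3 gave a ratio of FPKM of 24.5, 23.5, 16.5 and 17.7 in IUO 1 to 4 and of 17.5, 26.2, 16.1 and 14.7 in PNO 1 to 4. In Saline 1 to 4 the ratio was 15.0, 14.9, 14.1 and 12.8. All IUO libraries and all PNO libraries but PNO 4 lay above the highest Saline library. The 3 highest ratios again belonged to IUO 1, IUO 2 and PNO 2. This ratio combines 2 members and was not tested, and the share of other gene pairs that separate likewise was not counted. Dbp alone already put all IUO libraries above all Saline libraries, while Nfil3 overlapped in every comparison.

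**Figure D2:**
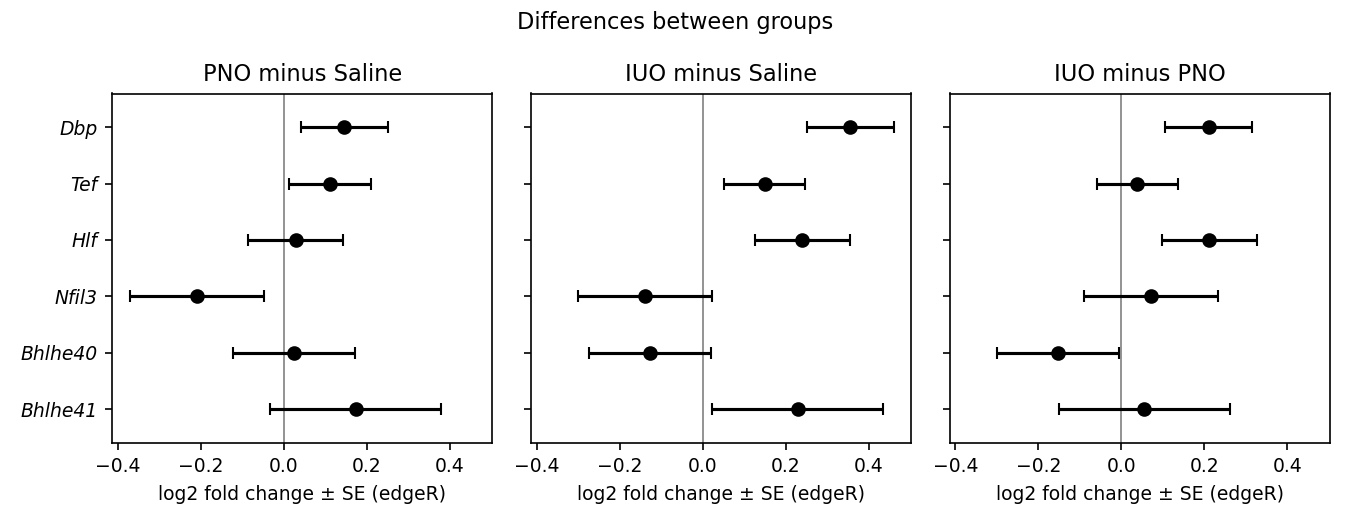
Log2 fold change (horizontal axes) of each member with its standard error in the 3 comparisons, from edgeR fitted to all 12 libraries. Dbp in IUO minus Saline lies farthest from 0, at 0.36, and 0 of 18 values passed after adjustment over all genes.

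Bhlhe41, a Bhlhe4 repressor (chr4:178834271-178838468, reverse strand), measured 13.3, 18.8, 11.9 and 9.22 FPKM in IUO 1 to 4, 10.6, 17.9, 10.5 and 12.2 FPKM in PNO 1 to 4, and 12.4, 12.03, 9.90 and 10.5 FPKM in Saline 1 to 4. IUO 2 and PNO 2, with the highest striatal means, stood above all other libraries, and the 3 groups overlapped without them. Its standard deviation within groups was 0.33 on the log2 CPM scale, the widest of the 6 members and at percentile 76.8 of tested genes, whose median was 0.21. Its log2 fold change was 0.23 (SE 0.21) in IUO minus Saline (unadjusted p = 0.287, adjusted p = 0.998 by edgeR), 0.17 (SE 0.21) in PNO minus Saline (unadjusted p = 0.416, adjusted p = 0.771) and 0.06 (SE 0.21) in IUO minus PNO (unadjusted p = 0.791, adjusted p = 0.955). Without the striatal-raised libraries, which leaves only bulb-raised libraries in the PNO group, these became -0.07, -0.01 and -0.06. With PNO 2 as the only PNO library, after the bulb-raised ones were left out, PNO minus Saline was 0.65 (unadjusted p = 0.0466, adjusted p = 0.712 by edgeR) and IUO minus PNO was -0.39.

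Bhlhe40, its paralog (chr4:141618476-141624774, forward strand), was lowest in IUO 2, the library with the highest Bhlhe41. It measured 14.0, 11.3, 20.3 and 16.9 FPKM in IUO 1 to 4, 19.4, 14.5, 18.3 and 17.5 FPKM in PNO 1 to 4, and 17.5, 17.7, 15.9 and 16.3 FPKM in Saline 1 to 4. IUO 1, IUO 2 and PNO 2 were the 3 lowest libraries, and IUO 3 and PNO 1, both bulb-raised, the 2 highest. The log2 fold change was -0.13 (SE 0.15) in IUO minus Saline (unadjusted p = 0.403, adjusted p = 0.998 by edgeR), -0.15 (SE 0.15) in IUO minus PNO (unadjusted p = 0.321, adjusted p = 0.794) and 0.02 (SE 0.15) in PNO minus Saline (unadjusted p = 0.870, adjusted p = 0.964). Without the striatal-raised libraries the first of these turned to 0.14, and without the bulb-raised libraries it was -0.29 and the PNO minus Saline value -0.24.

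Since Bhlhe40 answers to neuronal activity, 11 activity-regulated genes were listed beside it, of which 9 were tested. In IUO minus Saline, 0 of 9 passed, all 9 had a negative log2 fold change, and their median was -0.48 against 0.02 over all tested genes. When the striatal-raised libraries were left out, 6 of 9 were negative with a median of -0.33. Nptx2, a secreted synaptic pentraxin, measured 107 ± 7.31 CPM in IUO and 164 ± 37.7 CPM in Saline (SD, n = 4 each; adjusted p = 0.998 by edgeR), and Dusp6, which encodes an ERK phosphatase, 24.3 ± 5.47 CPM in IUO and 35.8 ± 1.47 CPM in Saline (adjusted p = 0.998 by edgeR). Arc, a synaptic activity gene, was at 51.5 and 39.8 CPM in IUO 1 and IUO 2, the IUO libraries with low Bhlhe40, and at 306 and 211 CPM in IUO 3 and IUO 4. It was at 175, 189, 299 and 330 CPM in PNO 1 to 4 and at 243 to 391 CPM in the Saline group. Arc is outside the rule for named genes and was chosen after its values were seen. Of the rest of the list, Fos, Fosb, Egr1, Nr4a1, Npas4 and Dusp6 were also lower in IUO 1 and IUO 2 than in IUO 3 and IUO 4. Egr3 went the other way, at 38.0 and 39.9 CPM against 29.9 and 21.3 CPM, and Nptx2 overlapped. In the PNO group, PNO 1 had the highest Bhlhe40 and the lowest Arc. In IUO minus PNO all 9 genes were negative as well, with a median of -0.36, and 6 of 9 with a median of -0.08 without the striatal-raised libraries. The smallest p-values there belonged to Dusp6 (24.3 ± 5.47 CPM in IUO and 31.1 ± 5.56 CPM in PNO) and the orphan nuclear receptor gene Nr4a1 (75.2 ± 43.5 CPM in IUO and 128 ± 42.6 CPM in PNO). In PNO minus Saline 8 of 9 were negative with a median of -0.12. That count rested on single libraries and settings: 4 of 9 were negative without PNO 1 (median 0.0024) and with limma and sample weights (median 0.02), and 5 of 9 without Saline 1. The median was -0.28 without PNO 4 and -0.48 without the bulb-raised libraries. Nptx2 measured 125 ± 19.9 CPM in PNO and 164 ± 37.7 CPM in Saline, and Dusp6 31.1 ± 5.56 CPM in PNO and 35.8 ± 1.47 CPM in Saline. None passed after adjustment in any comparison.

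**Figure D3:**
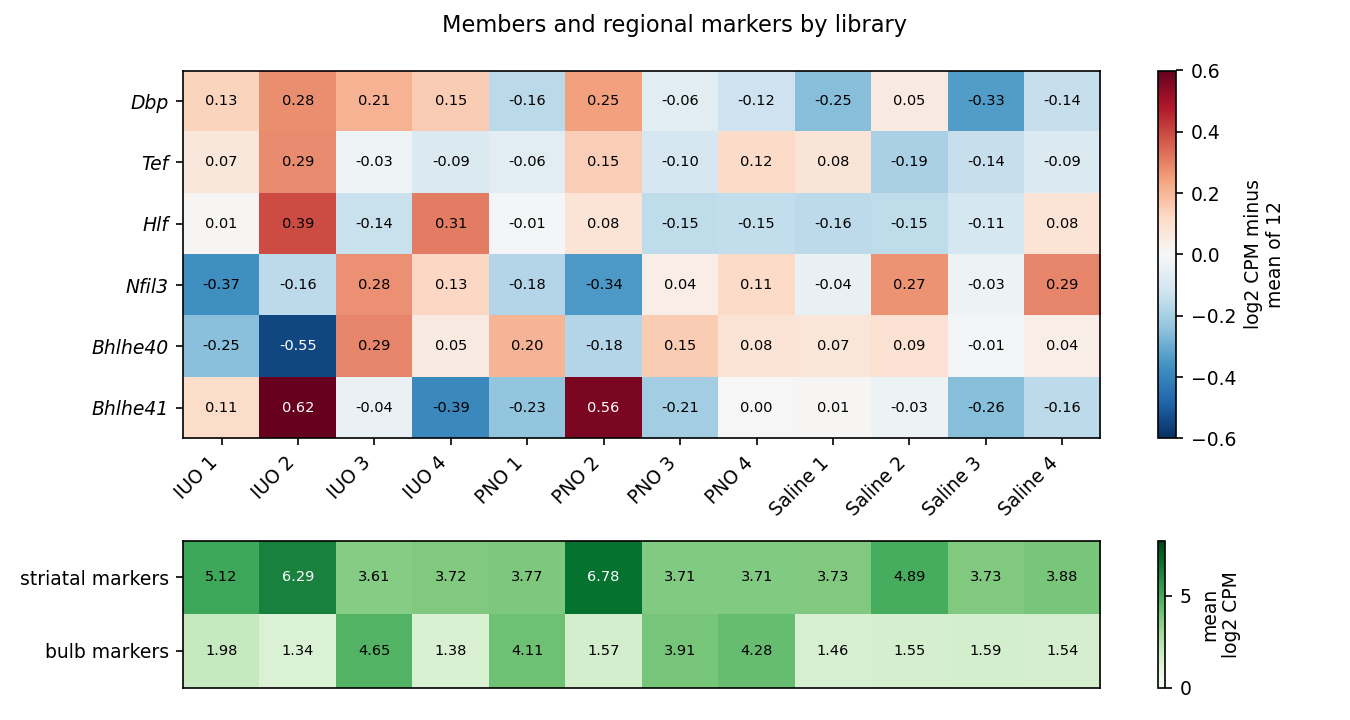
Upper panel, log2 CPM of each member minus its mean over the 12 libraries, with libraries on the horizontal axis and the value in each cell. Lower panel, mean log2 CPM of the striatal and bulb markers in the same libraries; IUO 2 and PNO 2 show high Bhlhe41 and low Bhlhe40 beside the highest striatal means of 6.29 and 6.78.

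Whether the members moved together across libraries was measured by Pearson's r and Spearman's rho of log2 CPM over the 12 libraries in all 15 pairs, with a two-sided permutation test. One pair passed after adjustment over the 15, Tef and Bhlhe41, with r = 0.83 (p = 0.000670, adjusted p = 0.0100). Its rho was 0.75 (p = 0.00701, adjusted p = 0.105), which did not pass. Without IUO 2 and PNO 2, the 2 libraries farthest from the median of Tef, r was 0.59 (permutation p = 0.0782), so the call rests on those libraries. Without the 4 striatal-raised libraries r was 0.80 over 8 libraries (permutation test, adjusted p = 0.202), and with each value centred on its group mean it was 0.83.

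The other pairs did not pass. Bhlhe40 and Bhlhe41 had r = -0.75 (adjusted p = 0.0525 by the permutation test) and rho = -0.48 (adjusted p = 0.246), and r was -0.53 without IUO 1 and IUO 2, the libraries farthest from the median of Bhlhe40, and 0.28 without the striatal-raised libraries. Tef and Bhlhe40 had r = -0.70 (adjusted p = 0.0525) and rho = -0.39 (adjusted p = 0.315), with r at -0.24 without IUO 2 and PNO 2 and at 0.11 without the striatal-raised libraries. Among the activators, r was 0.56 for Dbp and Hlf (permutation test, adjusted p = 0.114), 0.43 for Dbp and Tef (adjusted p = 0.198) and 0.44 for Tef and Hlf (adjusted p = 0.198). The matching rho was 0.54 (adjusted p = 0.246), 0.46 (adjusted p = 0.246) and 0.36 (adjusted p = 0.348). Without the striatal-raised libraries those r values were 0.40, -0.05 and -0.39, and without the 2 farthest libraries they were 0.38, 0.07 and -0.13. Dbp and its antagonist Nfil3 had r = -0.18 (adjusted p = 0.570 by the permutation test) and rho = -0.09 (adjusted p = 0.784). Nfil3 and Bhlhe40, both repressors, had r = 0.59 (adjusted p = 0.101 by the permutation test) and rho = 0.47 (adjusted p = 0.246). The remaining 7 pairs are Dbp with each Bhlhe4 gene, Hlf with each of the 3 repressors, and Nfil3 with Tef and with Bhlhe41; their adjusted p for r ran from 0.0739 to 0.462.

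**Figure D4:**
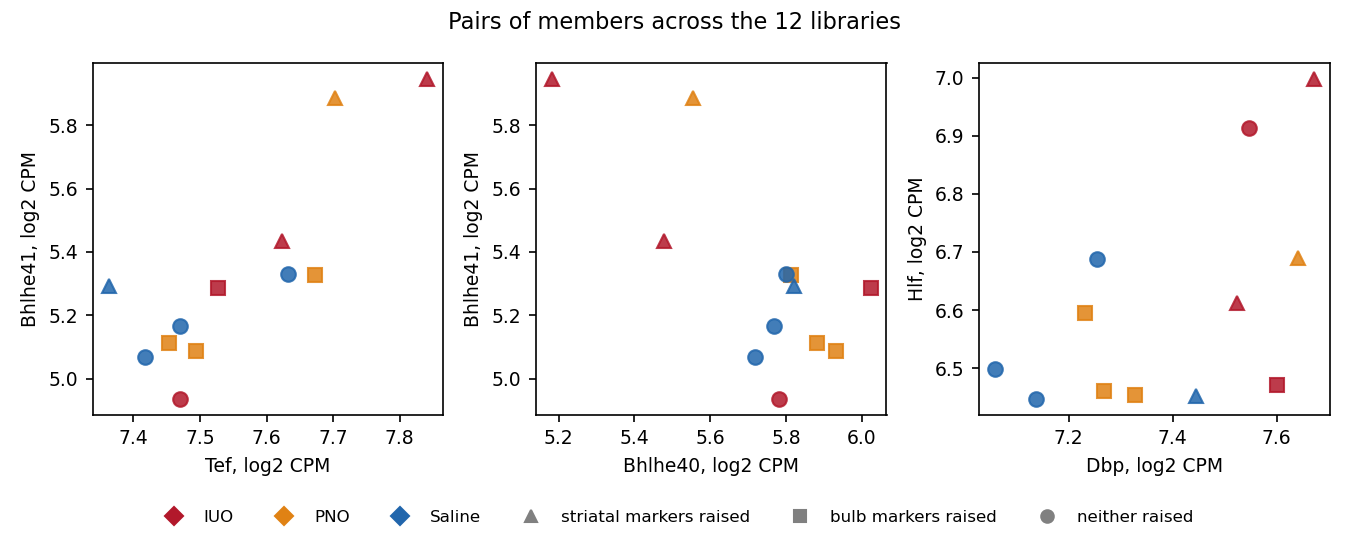
Log2 CPM of 3 pairs of members across the 12 libraries, with colours for the groups and symbols for striatal-raised and bulb-raised libraries. IUO 2 and PNO 2 form the upper end of Tef against Bhlhe41 (r = 0.83) and the upper left of Bhlhe40 against Bhlhe41 (r = -0.75).

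By likeness of profile, taken as the root mean square difference of centred log2 CPM over the 12 libraries, the members were not each other's nearest genes. Closest to Dbp were F2r, a thrombin receptor, at 0.11, Pcp4, a calmodulin-binding peptide, at 0.11, and Trnp1 at 0.13, beside a deviation of Dbp from its own mean of 0.20. Hlf ranked 286 and Tef 411 among the 14169 other tested genes in likeness to Dbp. Closest to Bhlhe41 were Zfp385b, Lpin3 and Rnf43, at 0.10, 0.10 and 0.12, and closest to Bhlhe40 were Matn2 and P4ha2, at 0.10 each, and a gene without a symbol. The nearest named genes were Srrm1 and Ubqln1 to Tef, Pip5k1b and Mbnl2 to Hlf (with AI593442 nearer still), and Magoh and Fdxr to Nfil3.

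The core clock loop, from which the output factors take their rhythm, was listed as 20 symbols, of which 17 genes were tested. In IUO minus Saline 0 of 17 passed, 11 were positive and 6 negative, and the median log2 fold change was 0.05 against 0.02 over all tested genes. With the 4 striatal-raised libraries left out, 7 were positive and the median was -0.04. Nr1d1, the REV-ERB alpha repressor, measured 183 ± 17.7 CPM in IUO and 136 ± 29.8 CPM in Saline (SD, n = 4 each), with a log2 fold change of 0.43 (SE 0.15, unadjusted p = 0.0143, adjusted p = 0.998 by edgeR). Arntl2, a paralog of the BMAL1 gene, was low in every library, at 0.779 ± 0.314 CPM in IUO and 1.48 ± 0.431 CPM in Saline (adjusted p = 0.998 by edgeR). Npas2 and Ciart were the other 2 with a positive value and an unadjusted p under 0.05, so that 3 of 17 were higher and 1 lower at that level, beside 2.31% and 1.71% of all tested genes. They are named here after their values were seen.

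In PNO minus Saline, 0 of 17 core clock genes passed, 14 were positive and the median was 0.06 against 0.01 over all tested genes. At an unadjusted p under 0.05, 3 were higher and 0 lower, beside 6.82% and 4.22% of all tested genes. With the striatal and bulb means as covariates 7 of 17 were positive, as with the length trend removed. Ciart, a clock repressor, measured 12.8 ± 1.46 CPM in PNO and 7.98 ± 1.08 CPM in Saline, with no overlap between the groups (log2 fold change 0.68, SE 0.17, adjusted p = 0.305 by edgeR), beside 5.17% of all tested genes without overlap in that direction. Ciart passed with DESeq2 (adjusted p = 0.0299) and with limma and sample weights (adjusted p = 0.0469), while with the striatal and bulb means as covariates in edgeR its log2 fold change was 0.16 (adjusted p = 0.9997). Without the bulb-raised libraries its value was 0.44 (adjusted p = 0.735 by edgeR). Npas2, a partner of BMAL1 that can stand in for CLOCK, averaged 74.0 ± 7.21 CPM in PNO libraries and 61.3 ± 3.27 CPM in Saline libraries (adjusted p = 0.358 by edgeR). In IUO minus PNO 0 of 17 passed, 7 were positive and 10 negative. At an unadjusted p under 0.05, 0 were higher and 2 lower, beside 3.67% and 3.06% of all tested genes. Arntl2 was at 0.779 ± 0.314 CPM in IUO and 1.38 ± 0.133 CPM in PNO, and Per1, which glucocorticoids and activity also induce, at 49.2 ± 21.8 CPM in IUO and 76.5 ± 13.2 CPM in PNO (adjusted p = 0.714 for each by edgeR). Arntl2 was lower in every IUO library than in every PNO library, as were 1.78% of all tested genes.

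Of 6 genes listed as downstream of the clock or of PAR bZIP factors, several of them known as such only from mouse liver, 0 passed in any comparison. In each comparison 3 were positive and 3 negative by edgeR. The median log2 fold change was -0.0050 in PNO minus Saline, -0.029 in IUO minus Saline and -3.4e-06 in IUO minus PNO. Usp2, a deubiquitinase gene, measured 32.1 ± 7.58 CPM in IUO, 32.5 ± 2.94 CPM in PNO and 25.6 ± 3.93 CPM in Saline. Pdxk, the pyridoxal kinase gene that depends on PAR bZIP factors in mouse brain, measured 15.5, 18.6, 12.02 and 14.5 CPM in IUO 1 to 4, 12.8, 20.5, 12.8 and 13.8 CPM in PNO 1 to 4, and 8.68, 15.2, 10.6 and 14.2 CPM in Saline 1 to 4. As with Dbp, the highest Pdxk library of each group was IUO 2, PNO 2 or Saline 2, all striatal-raised. No other gene of the 6 had this pattern. Usp2 was highest in IUO 1, PNO 4 and Saline 3, and Alas1 in IUO 1, PNO 3 and Saline 4. Alas1, which starts heme synthesis, measured 54.1 ± 4.06 CPM in IUO, 59.5 ± 2.15 CPM in PNO and 60.9 ± 8.80 CPM in Saline. Nampt, which makes a precursor of NAD, measured 44.5 ± 1.54 CPM in IUO and 39.8 ± 2.23 CPM in PNO without overlap, beside 1.85% of all tested genes.

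Among 6 glucocorticoid-responsive genes, listed because glucocorticoids reset clocks outside the hypothalamus, 0 passed in any comparison. Cdkn1a, a cell cycle inhibitor gene, measured 11.4 ± 1.90 CPM in IUO, 12.1 ± 2.82 CPM in PNO and 17.6 ± 1.54 CPM in Saline, and both exposed groups lay below all Saline libraries (adjusted p = 0.998 in IUO minus Saline and 0.355 in PNO minus Saline by edgeR). All tested genes showed such a lower, separate group in 1.03% of cases in IUO minus Saline and 4.66% in PNO minus Saline. Errfi1, a feedback inhibitor of the EGF receptor, measured 21.05 ± 3.43 CPM in IUO, 24.9 ± 1.92 CPM in PNO and 25.5 ± 4.64 CPM in Saline. Tsc22d3, which also stands on the clock output list, measured 36.7 ± 4.79 CPM in PNO and 44.3 ± 17.2 CPM in Saline. The Saline mean was carried by Saline 1 at 69.8 CPM, and Saline 2 to 4 measured 39.0, 36.1 and 32.3 CPM, within the PNO range of 32.2 to 43.4 CPM. Zbtb16 measured 5.20 ± 1.46 CPM in IUO and 6.33 ± 0.743 CPM in PNO.

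**Figure D5:**
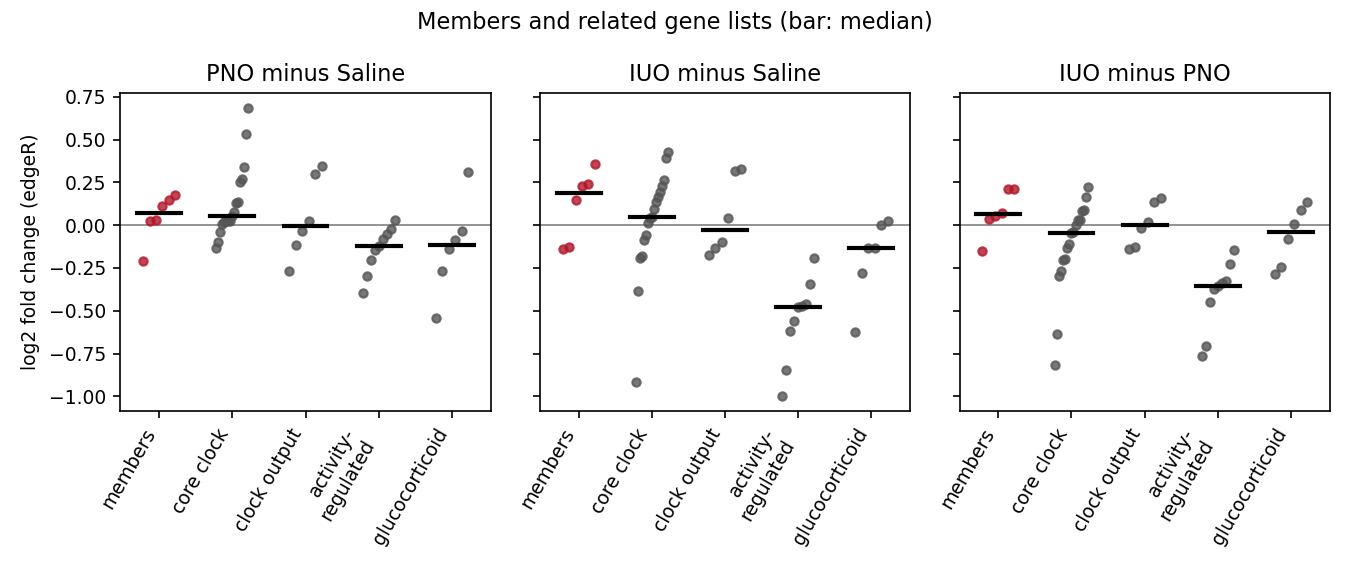
Log2 fold changes (vertical axis, edgeR) of the 6 members and of the genes tested on 4 related lists in the 3 comparisons, 1 point per gene with a bar at the list's median. The activity-regulated genes have medians of -0.12, -0.48 and -0.36 in PNO minus Saline, IUO minus Saline and IUO minus PNO, and the members medians of 0.07, 0.19 and 0.06 in the same order.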

How the data were processed

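Per the file headers, the authors deposited 1 table with whole-number counts and FPKM per gene and library. The submitters' processing notes name HISAT2 and StringTie; the sources used here give no version, genome build, annotation or strand setting. The filter kept genes that averaged 0.5 FPKM or more over all 12 libraries, and their counts were tested with edgeR 4.0.16 (R 4.3.3): TMM scaling, 1 quasi-likelihood model with the 3 groups, two-sided tests, Benjamini-Hochberg adjustment over all 14170 genes and a threshold of 0.05. The SE of a log2 fold change is its size divided by the square root of its F statistic. Log2 CPM used a prior count of 2. Permutation tests drew 100000 orders. Libraries were called raised for regional markers at more than 0.5 log2 CPM above the median. The members and lists were chosen with earlier results of these data known. All members were named, and from other lists the 2 genes with the smallest unadjusted p. Alternatives used limma 3.58.1 and DESeq2 1.42.0. Those that left out striatal-raised or bulb-raised libraries, or used the marker means as covariates, were added after the data were seen. The fits were tested on simulated data. Figures used matplotlib 3.10.9 (Python 3.11.15).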

Additional observations from a re-analysis of the deposited data

How the results depend on the processing

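No member passed in any of the 26 alternatives to each comparison (smallest adjusted p 0.312), and 437 of 468 member values kept their direction. That count includes fits without a library of the group not compared, which could hardly change a value. Each member had at least 501 counts in every library. The counts of genes past the threshold, 0 in each comparison, became 117 (PNO minus Saline), 11 (IUO minus Saline) and 8 (IUO minus PNO) with DESeq2. In PNO minus Saline they became 1 with limma on log2(FPKM + 0.5), 1 with a pseudocount of 0.1 and 1 with 1, 11 with only the 2 groups compared, 32 with limma with sample weights, 3 without raised bulb libraries and 1 with the marker covariates. Without raised striatal libraries they became 4 in IUO minus Saline and 3 in IUO minus PNO, and without raised bulb libraries 1 and 3. Leaving out single libraries gave 0 to 19 (19 without IUO 4), 0 to 1 and 0 to 1. The cause was not tested.

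The sign turned for the following values. In PNO minus Saline, Hlf was -0.013 with sample weights, -0.089 with the length trend removed and -0.044 without raised striatal libraries, Bhlhe40 -0.017 with the length trend removed, -0.24 without raised bulb libraries and -0.073 with covariates, and Bhlhe41 -0.013 without raised striatal libraries and -0.19 with covariates. In IUO minus Saline without raised striatal libraries, Tef was -0.0097, Nfil3 0.12, Bhlhe40 0.14 and Bhlhe41 -0.071, and Bhlhe41 was -0.093 with covariates. In IUO minus PNO, Tef was -0.044, Bhlhe40 0.031 and Bhlhe41 -0.058 without raised striatal libraries, Dbp -0.058, Tef -0.050 and Bhlhe41 -0.39 without raised bulb libraries, and Nfil3 -0.11 with sample weights. Leaving out single libraries gave Hlf -0.021 to 0.073, Bhlhe40 -0.027 to 0.10 and Bhlhe41 -0.039 to 0.25 in PNO minus Saline, Bhlhe40 -0.28 to 2.3e-05 in IUO minus Saline, and Tef -0.043 to 0.085, Nfil3 -0.029 to 0.17 and Bhlhe41 -0.16 to 0.27 in IUO minus PNO.

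The number of pairs past the threshold, 1, was 0 without raised striatal libraries, 0 without raised bulb libraries and 0 to 5 with single libraries left out (0 without IUO 2 or PNO 2, 5 without IUO 4, 3 without IUO 3 or Saline 3). Without raised striatal libraries r turned to -0.050 for Dbp and Tef, 0.58 for Dbp and Nfil3, 0.58 for Dbp and Bhlhe40, -0.14 for Dbp and Bhlhe41, -0.39 for Tef and Hlf, 0.0023 for Tef and Nfil3, 0.11 for Tef and Bhlhe40, 0.21 for Hlf and Nfil3, -0.73 for Hlf and Bhlhe41, 0.20 for Nfil3 and Bhlhe41 and 0.28 for Bhlhe40 and Bhlhe41. Centred on group means, r of Dbp and Nfil3 was 0.0076. Hlf and Bhlhe41 ran from -0.095 to 0.72 with single libraries left out. Whether the replicate numbers pair the libraries was not tested. The r of same-numbered deviations was positive throughout, from 0.02 to 0.41. Of the 12 libraries, 3 matched best with their own number in both other groups. With the replicate number as a block the counts of genes past the threshold stayed at 0, 0 and 0. Dbp in IUO minus Saline was then 0.36 (SE 0.078, unadjusted p = 0.000831, adjusted p = 0.722 by edgeR).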

Other observations

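The ratio of Bhlhe40 to Bhlhe41 in FPKM was 1.05 in IUO 1, 0.601 in IUO 2 and 0.811 in PNO 2, and between 1.41 and 1.83 in the 9 others. IUO 1, IUO 2 and PNO 2 had the highest striatal marker means of the 12, at 5.12, 6.29 and 6.78. Saline 2, the remaining library with raised striatal markers (4.89), had a ratio of 1.47. The part of regional tissue in this ratio was not tested.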
